A study of Mus musculus with 11 samples.

Results

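The 40 genes described here encode the main parts of the desmosomes, adherens junctions and tight junctions of the epidermis. They were chosen by symbol, with symbols taken from the Ensembl identifiers of the count files. All 40 were found among the 55536 genes of the files, and all 40 were among the 20307 genes that passed the filter on low counts. By role they are 9 desmosomal cadherins, 9 desmosomal plaque genes including Perp, 8 adherens junction genes, 8 claudins and 6 other tight junction genes.

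RNA was sequenced in 11 libraries of sorted dorsal skin epidermal cells from adult male CD4Cre R26-tdT (C57Bl6/N) mice. In these animals the Cd4 promoter drives the recombinase Cre, and cells that have made Cre, together with their descendants, carry the red fluorescent reporter tdT. Every library came from the CD49f+CD34+ gate and pools 2 mice. CD49f is an integrin of basal keratinocytes, and CD34 marks the bulge, the stem cell region of the mouse hair follicle. Sca-1 and tdT divided the gate into 4 groups, giving Sca-1neg tdT- (3 libraries), Sca-1neg tdT+ (3), Sca-1+ tdT- (2) and Sca-1+ tdT+ (3). Mice were 29 weeks old for replicate 1 of every group and 32 weeks old for all others. Whether the pools of different groups share mice is not given in the sources used here, so p-values measure the spread between these libraries. No group is a wild type or a Cre-free control.

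Some libraries depart from their labels. The file entry read as the reporter was low in one tdT+ library: the library labelled replicate 2 of Sca-1neg tdT+ had 2.05 CPM (counts per 1000000), against 133 and 252 CPM in the other libraries of that group and 2.54 to 4.89 CPM in the 5 tdT- libraries. Liver transcripts were present in 3 libraries, namely Sca-1neg tdT+ replicate 1, the library labelled replicate 2 of Sca-1neg tdT+, and Sca-1neg tdT- replicate 2. In these, albumin RNA (Alb) reached 9564, 4393 and 6099 CPM. The 8 remaining libraries had 3.04 to 37.3 CPM. The 10 endothelial markers summed to 4460 and 4793 CPM in Sca-1+ tdT-, beside 12.8 to 1014 CPM in the other 9 libraries. The gate marker Cd34 stood at 468 to 1130 CPM in Sca-1neg libraries of either tdT state, was 320 and 383 CPM in Sca-1+ tdT-, and was 22.4 to 35.7 CPM in Sca-1+ tdT+. The 8 T cell markers summed to 397 to 1029 CPM in Sca-1+ tdT+, 144 and 151 CPM in Sca-1+ tdT-, and 24.3 to 75.6 CPM in the Sca-1neg libraries, and their part in the results was not tested. Krt5 and Krt14, the keratins of basal keratinocytes, were abundant in all 11 libraries, at 8213 CPM or more and 2615 CPM or more.

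Desmosomes join neighbouring keratinocytes by desmogleins and desmocollins, cadherins that cross the membrane and bind to plakoglobin, plakophilins and desmoplakin, which hold the keratin filaments. Adherens junctions couple classical cadherins through catenins, and nectins through afadin, to actin. Tight junctions seal the space between cells of the upper living layers with claudins and occludin, anchored by zonula occludens proteins. In the epidermis the desmosomal cadherins follow a layered order: Dsg3 and Dsc3 are strong in the basal layer, and Dsg1 and Dsc1 in the differentiating layers.

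The same few genes led the set in all 4 groups when levels were compared per length. Per kb of exon, Perp, which encodes a membrane protein needed for desmosome assembly, was first in every group, at means from 967 CPM per kb in Sca-1neg tdT- to 1720 CPM per kb in Sca-1+ tdT+. Dsp, which encodes desmoplakin, was second in every group, at 359 to 475 CPM per kb. Pkp1 (plakophilin 1) ranked 3 in both Sca-1+ groups, at 353 and 456 CPM per kb, and stood at 174 and 184 CPM per kb in the Sca-1neg groups. Dsg1c, Dsg4 and Cldn7 were each under 0.5 CPM per kb in all 4 groups, and were the lowest by the mean over the 11 libraries. Cldn7 had no count in Sca-1neg tdT+ replicate 3 and in Sca-1+ tdT+ replicate 2, which allows up to 0.165 and 0.170 CPM (3 counts, counting error only).

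**Figure D1:**
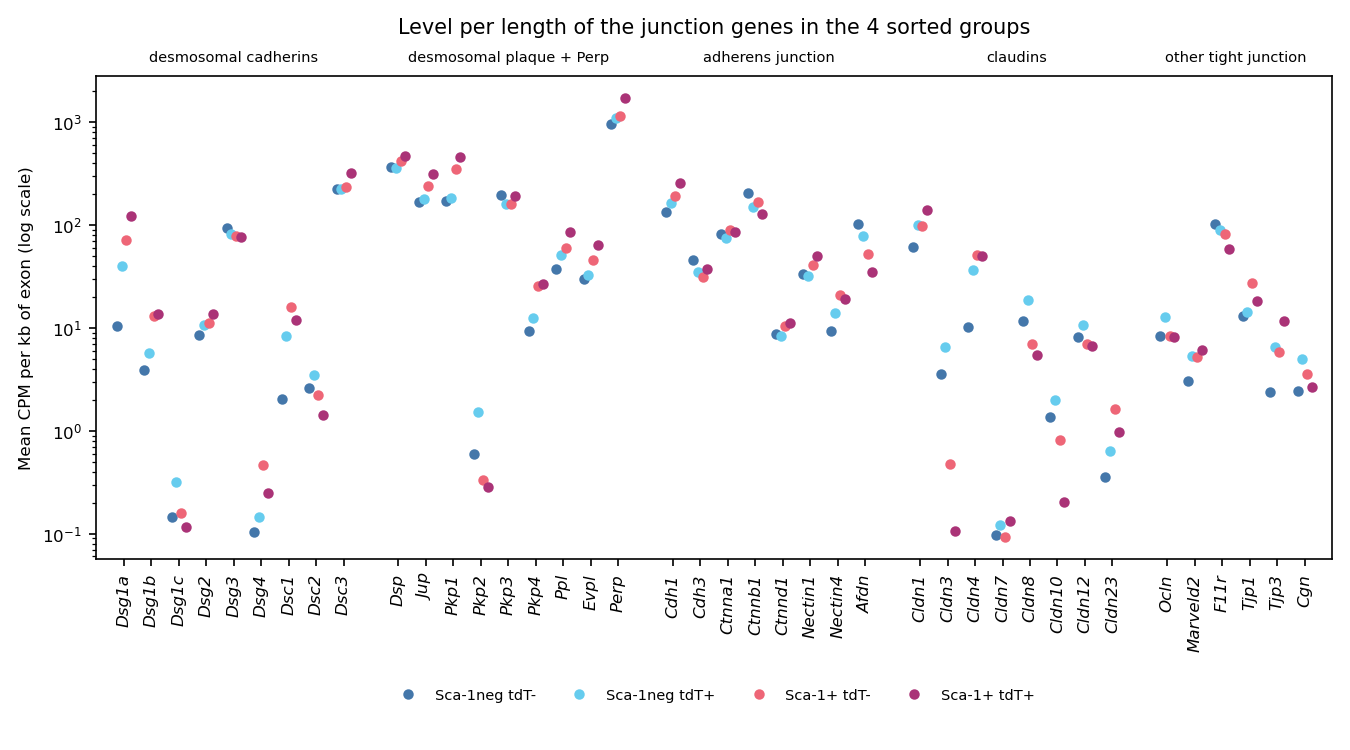
Mean level of each of the 40 junction genes in the 4 sorted groups, in CPM per kb of exon on a log axis, ordered by role, with 1 point per group mean. Perp lies at the top in every group, and Dsg1c, Dsg4 and Cldn7 lie below 0.5 CPM per kb.

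The main contrast in the set was between the Sca-1 fractions. In tdT- cells, 7 of the 40 genes were higher in Sca-1+ than in Sca-1neg libraries and 1 was lower, at an adjusted p under 0.05 in the quasi-likelihood test of edgeR. Of all genes tested, 5.74% passed in that comparison, 3.68% higher and 2.06% lower. In tdT+ cells, 7 of the 40 were higher and 5 lower, where 12.7% of all genes passed, 5.94% higher and 6.73% lower. Counted by libraries that do not overlap, 18 of the 40 were higher and 5 lower in tdT- cells, where 19.9% and 26.4% of all genes were. In tdT+ cells 10 were higher and 7 lower, beside 15.4% and 15% of all genes. With libraries scaled to the sum of the 8 basal keratinocyte markers, 1 of the 40 was higher and 14 lower in tdT+ cells. Of all genes, 1.27% and 38.2% were. The median log2 fold change of the 40 genes was 0.28 in tdT- cells and 0.39 in tdT+ cells, beside -0.13 and -0.07 over all genes tested. Dsg1b, Pkp1 and Pkp4 were higher and Afdn was lower in both. These comparisons use different libraries, but were fitted with 1 shared estimate of the spread. In bulk libraries, fewer cells of a type and less RNA per cell cannot be told apart.

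How many genes passed depended on single libraries, in the set and among all genes. In the full fit 5.74% of all genes passed in tdT- cells and 12.7% in tdT+ cells. Each fit below with 1 library left out also called a lower share of all genes, given in parentheses where each group kept replicates. In tdT- cells the count of 8 was 0 without Sca-1+ tdT- replicate 1. It was 3 when Sca-1neg tdT- replicate 3 was left out (1.5%), and 4 when Sca-1+ tdT+ replicate 1 was left out (4.78%). In tdT+ cells the count of 12 was 5 without Sca-1neg tdT+ replicate 1 (7.91%) and 6 without the library labelled replicate 2 of Sca-1neg tdT+ (10.4%). Leaving out Sca-1+ tdT+ replicate 1 gave 4 (9.24%), and leaving out replicate 3 of that group gave 6 (8.62%). Without the 3 libraries with liver transcripts the counts were 8 in tdT- cells, 7 of them shared with the full fit, and 8 in tdT+ cells, 7 of them shared. Among the 32-week libraries alone no gene of the set passed in either comparison in edgeR. That fit, like the one without Sca-1+ tdT- replicate 1, has a single Sca-1+ tdT- library, and takes its spread from the groups with replicates. The 29-week libraries, 1 per group, allow no test. All 8 and all 12 genes had the same sign of difference at 29 and at 32 weeks, as did 32 and 37 of all 40. The 8 and the 12 were picked by a fit that holds both ages, so their same sign was likely beforehand. It is not separate support. The share of all genes with the same sign at both ages was not computed.

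**Figure D2:**
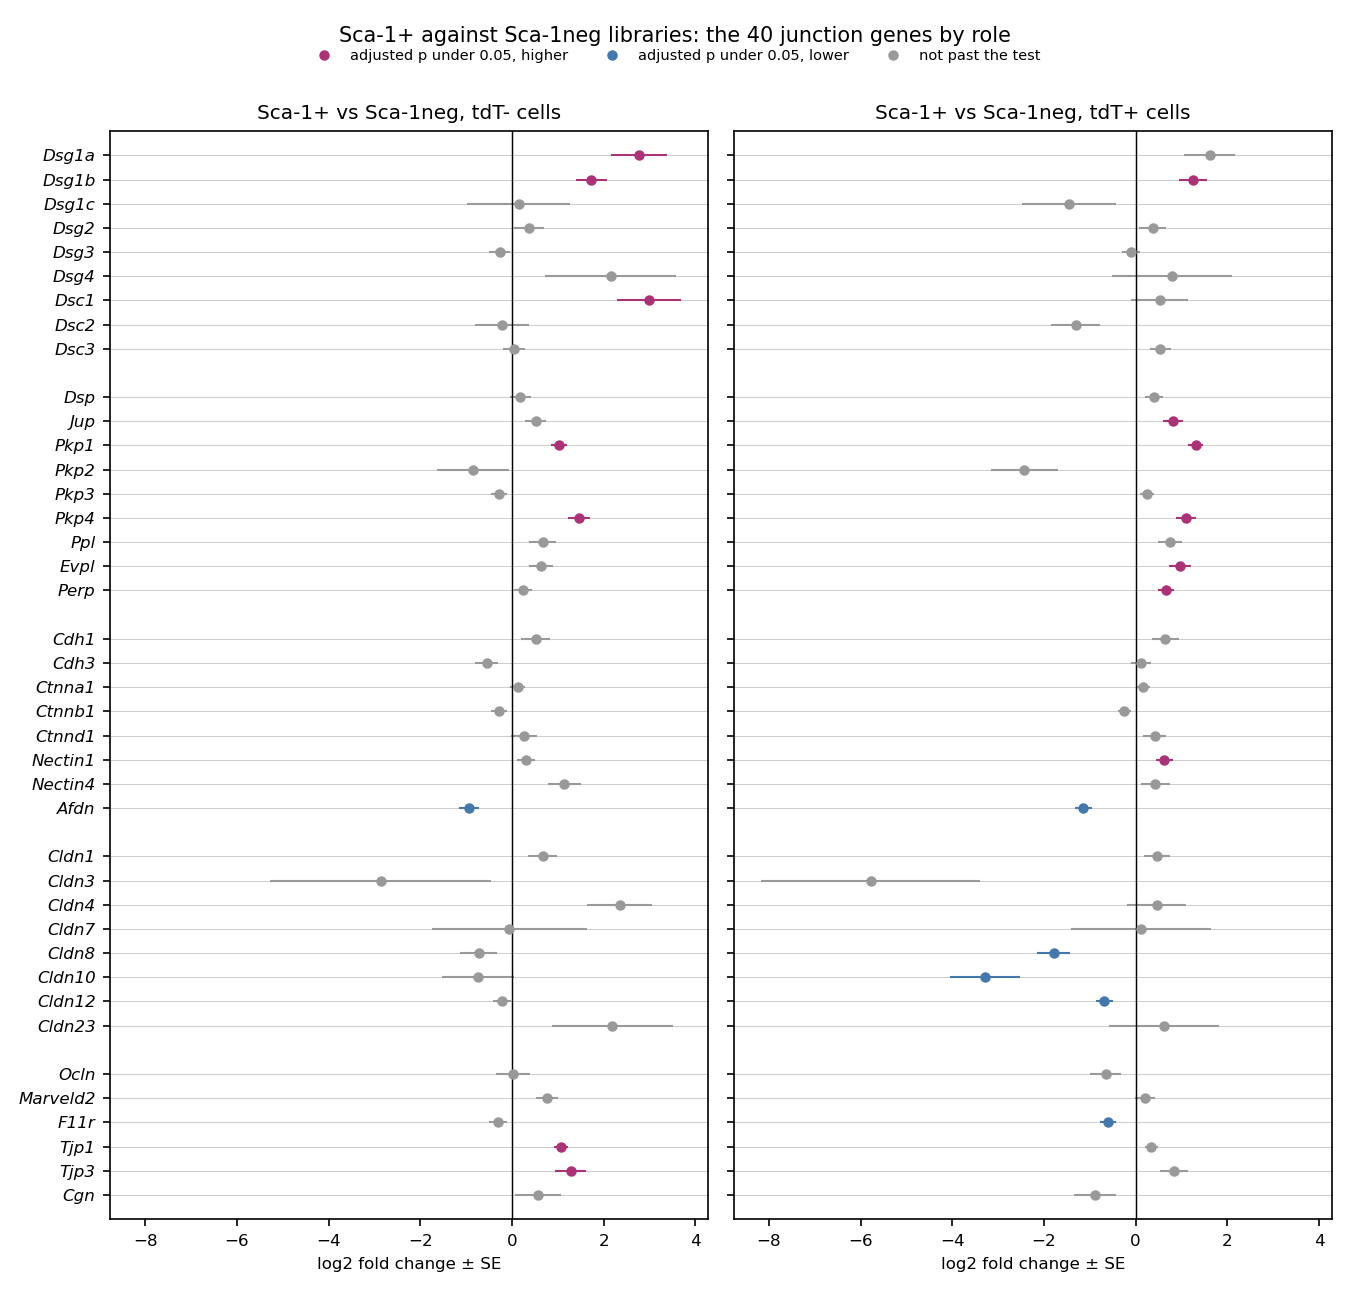
Log2 fold change (± SE) of the 40 junction genes between Sca-1+ and Sca-1neg libraries, in tdT- cells (left) and tdT+ cells (right), grouped by role. Coloured points passed the test (7 higher and 1 lower on the left, 7 higher and 5 lower on the right), and Pkp1, Pkp4, Dsg1b and Afdn are coloured in both panels.

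Among the desmosomal cadherins, the differentiation-layer genes Dsg1a, Dsg1b and Dsc1 were higher in Sca-1+ tdT- cells, and the basal-layer genes Dsg3 and Dsc3 did not pass the test. Of the 9 cadherins, 3 were higher in Sca-1+ tdT- cells and 1 in Sca-1+ tdT+ cells, and none was lower. Of all genes tested, 3.68% and 5.94% were higher. In the order of replicates, Dsg1a, which encodes a desmoglein 1, stood at 101, 25 and 53.8 CPM in Sca-1neg tdT-, 176, 320 and 189 in Sca-1neg tdT+, 599 and 222 in Sca-1+ tdT-, with 852, 465 and 779 in Sca-1+ tdT+. Each Sca-1+ library lay above each Sca-1neg library of the same tdT state. The log2 fold change of Dsg1a was 2.77 ± 0.61 (SE; adjusted p = 0.0333, edgeR) in tdT- cells and 1.61 ± 0.55 (adjusted p = 0.0929) in tdT+ cells. In the 3 libraries with liver transcripts Dsg1a ran from 25 to 320 CPM, so both the lowest and the highest Sca-1neg values were among them.

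Dsg1b, a second desmoglein 1 gene, stood at 21.4, 11.6 and 13.8 CPM in Sca-1neg tdT-, 23.4, 28.9 and 15.6 in Sca-1neg tdT+, 64.3 and 39.2 in Sca-1+ tdT-, with 64.8, 44.0 and 53.7 in Sca-1+ tdT+. All 5 Sca-1+ libraries lay above all 6 Sca-1neg libraries. Its log2 fold change was 1.73 ± 0.33 (adjusted p = 0.0142, edgeR) in tdT- cells and 1.26 ± 0.30 (adjusted p = 0.0211) in tdT+ cells. The tdT+ call of Dsg1b was lost in 6 of 21 alternatives, among them the scaling to the basal keratinocyte markers. Parts of the Dsg1 transcripts are near copies. In the best single alignment, Dsg1a and Dsg1b were 98.3% identical over 1795 aligned bases. Dsg1a and Dsg1c were 94.5% identical over 1752, and Dsg1b and Dsg1c 94.7% over 1704. The transcripts compared were 5686 (Dsg1a), 3965 (Dsg1b) and 4088 (Dsg1c) bases long. How reads that map to several places were counted is not given in the sources used here, so the split of counts among the 3 copies is uncertain.

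Dsc1, the desmocollin of the upper layers, ran from 3.20 to 19.6 CPM in Sca-1neg tdT-, 35.1 to 54.1 in Sca-1neg tdT+, 41.4 to 121 in Sca-1+ tdT- and 48.6 to 79.9 in Sca-1+ tdT+. The Sca-1 groups were apart in tdT- cells (log2 fold change 2.98 ± 0.71, adjusted p = 0.0456, edgeR). They overlapped in tdT+ cells, with a log2 fold change of 0.52 ± 0.62 (adjusted p = 0.62).

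Dsg3, the basal desmoglein, stood at 694, 521 and 748 CPM in Sca-1neg tdT-, 446, 548 and 716 in Sca-1neg tdT+, 520 and 563 in Sca-1+ tdT-, with 571, 485 and 537 in Sca-1+ tdT+. Its groups overlapped, with log2 fold changes between Sca-1 fractions of -0.27 ± 0.22 in tdT- and -0.10 ± 0.20 in tdT+ cells. Dsc3, the basal desmocollin and per length the most abundant cadherin of desmosomes, stood at 1385, 870 and 1404 CPM in Sca-1neg tdT-, 1042, 1221 and 1358 in Sca-1neg tdT+, 1460 and 1055 in Sca-1+ tdT-, with 1914, 1517 and 1835 in Sca-1+ tdT+. In tdT+ cells all 3 Sca-1+ libraries were above the Sca-1neg ones, yet the difference (0.54 ± 0.22 on the log2 scale, adjusted p = 0.133, edgeR) did not pass. Dsg2 and Dsc2, the widely expressed pair of simple epithelia, ran from 53.0 to 131 CPM and from 6.50 to 33.1 CPM over the 11 libraries, and neither passed a test.

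Summed levels of 12 markers of differentiating epidermis also differed between the groups. The 12 summed to 3663 to 4307 CPM in Sca-1neg tdT-, 5330 to 7219 in Sca-1neg tdT+, 5411 to 9819 in Sca-1+ tdT- and 11530 to 13300 in Sca-1+ tdT+. Krt10, the keratin of the first suprabasal layers, ran from 101 to 775 CPM in Sca-1neg tdT-, 697 to 2308 in Sca-1neg tdT+, 1334 to 3511 in Sca-1+ tdT- and 3204 to 5433 in Sca-1+ tdT+. Their part in the Dsg1a, Dsg1b and Dsc1 results was not tested. The markers did not all point one way: of the 12, 3 were higher and 1 lower in Sca-1+ tdT- cells, and 2 were higher and 1 lower in Sca-1+ tdT+ cells. Calml3, one of the 12, was lowest in Sca-1+ tdT+, at 57.5 to 117 CPM, beside 155 and 280 CPM in Sca-1+ tdT- and 489 to 851 CPM in the 6 Sca-1neg libraries.

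In the desmosomal plaque, the clearest differences were in plakophilins 1 and 4. Of the 9 plaque genes, 2 were higher in Sca-1+ tdT- cells and 5 in Sca-1+ tdT+ cells, and none was lower. Of all genes tested, 3.68% and 5.94% were higher. With libraries scaled to the basal keratinocyte markers, 4 of the 9 had a positive and 5 a negative difference in tdT+ cells. Pkp1 (chr1:135871395-135919207, mm10, minus strand), the main plakophilin of stratified epidermis, stood at 945, 928 and 744 CPM in Sca-1neg tdT-, 844, 902 and 1029 in Sca-1neg tdT+, 1730 and 1819 in Sca-1+ tdT-, with 2404, 2233 and 2233 in Sca-1+ tdT+. All 5 Sca-1+ values exceeded all 6 Sca-1neg values by a gap wider than the range of the Sca-1neg libraries. Log2 fold changes were 1.02 ± 0.17 (adjusted p = 0.00843, edgeR) in tdT- cells and 1.31 ± 0.16 (adjusted p = 0.000517) in tdT+ cells.

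Pkp4 (chr2:59160850-59355208, plus strand), a p120-type armadillo protein also found at adherens junctions, stood at 50.9, 68.3 and 41.0 CPM in Sca-1neg tdT-, 73.2, 86.1 and 55.8 in Sca-1neg tdT+, 150 and 142 in Sca-1+ tdT-, with 155, 125 and 183 in Sca-1+ tdT+. Again no Sca-1+ library overlapped a Sca-1neg library. The log2 fold change was 1.45 ± 0.24 (adjusted p = 0.00859, edgeR) in tdT- cells and 1.10 ± 0.22 (adjusted p = 0.0089) in tdT+ cells. The tdT+ call of Pkp4 was lost in 2 of 21 alternatives, among them the scaling to the basal keratinocyte markers.

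Jup (chr11:100368958-100397763, minus strand) encodes plakoglobin, which is shared by desmosomes and adherens junctions. It stood at 1148, 1007 and 1104 CPM in Sca-1neg tdT-, 904, 1171 and 1401 in Sca-1neg tdT+, 1493 and 1609 in Sca-1+ tdT-, with 1905, 1629 and 2594 in Sca-1+ tdT+. The fractions did not overlap, and the difference passed in tdT+ cells (0.82 ± 0.21 on the log2 scale, adjusted p = 0.0285, edgeR). In tdT- cells it was 0.51 ± 0.23 (adjusted p = 0.241). The call of Jup in tdT+ cells was lost in 8 of 21 alternatives, over which its log2 fold change ran from 0.067 to 0.977.

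Evpl (envoplakin; chr11:116220559-116238077, minus strand) encodes a plakin that links desmosomes to the cornified envelope. It stood at 206, 179 and 182 CPM in Sca-1neg tdT-, 169, 212 and 243 in Sca-1neg tdT+, 303 and 281 in Sca-1+ tdT-, with 410, 259 and 547 in Sca-1+ tdT+. Its difference passed in tdT+ cells (0.96 ± 0.24 on the log2 scale, adjusted p = 0.0248, edgeR) and was 0.62 ± 0.26 (adjusted p = 0.205) in tdT- cells. The tdT+ call of Evpl was lost in 8 of 21 alternatives, over which its log2 fold change ran from 0.21 to 1.178. Its partner plakin Ppl (periplakin) ran from 216 to 422 CPM in the Sca-1neg and 337 to 685 CPM in the Sca-1+ libraries, and did not pass in either.

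Perp (chr10:18845020-18857073, plus strand) stood at 1879, 1642 and 2140 CPM in Sca-1neg tdT-, 1762, 2179 and 2447 in Sca-1neg tdT+, 2429 and 2033 in Sca-1+ tdT-, with 3106, 3344 and 3622 in Sca-1+ tdT+. The 3 Sca-1+ tdT+ libraries were above the other 8. The log2 fold change in tdT+ cells was 0.66 ± 0.18 (adjusted p = 0.0353, edgeR) with scaling over all genes, and -0.11 when libraries were scaled to the 8 basal keratinocyte markers. Those markers summed to 33730 to 40050 CPM in Sca-1+ tdT+ and to 18370 to 27840 CPM in the other groups. The scaling used this sum, in which abundant genes weigh most. Krt14 was at 2615 to 3709 CPM in Sca-1neg tdT+ and 9306 to 14630 in Sca-1+ tdT+. Krt5 was at 8213 to 11350 and 13330 to 16210 CPM. The median log2 fold change of the 8 in this comparison was 0.384, and 3 of the 8 were higher without overlap between libraries. That scaling moved the median of all genes by -0.80 in this comparison. The plaque genes' median stood 0.82 above the median of all genes with the usual scaling and 0.86 above it with the marker scaling. A change of scaling moves nearly all genes by the same amount. This distance could therefore hardly change, and it cannot decide which scaling is right.

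Dsp stood at 3871, 3108 and 3661 CPM in Sca-1neg tdT-, 2922, 3260 and 4229 in Sca-1neg tdT+, 4267 and 3787 in Sca-1+ tdT-, with 5166, 3577 and 5009 in Sca-1+ tdT+. The groups overlapped in tdT+ cells, and neither fold change passed (0.18 ± 0.23 and 0.40 ± 0.20 on the log2 scale). Pkp3, a plakophilin of all epidermal layers, was 484 to 734 CPM across the 11 libraries. Pkp2, the plakophilin of simple epithelia and heart, was 3.69 to 12.3 CPM in Sca-1neg tdT+ and 0.773 to 2.28 CPM among Sca-1+ libraries, with a log2 fold change in tdT+ cells of -2.43 ± 0.73 (adjusted p = 0.0515, edgeR).

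**Figure D3:**
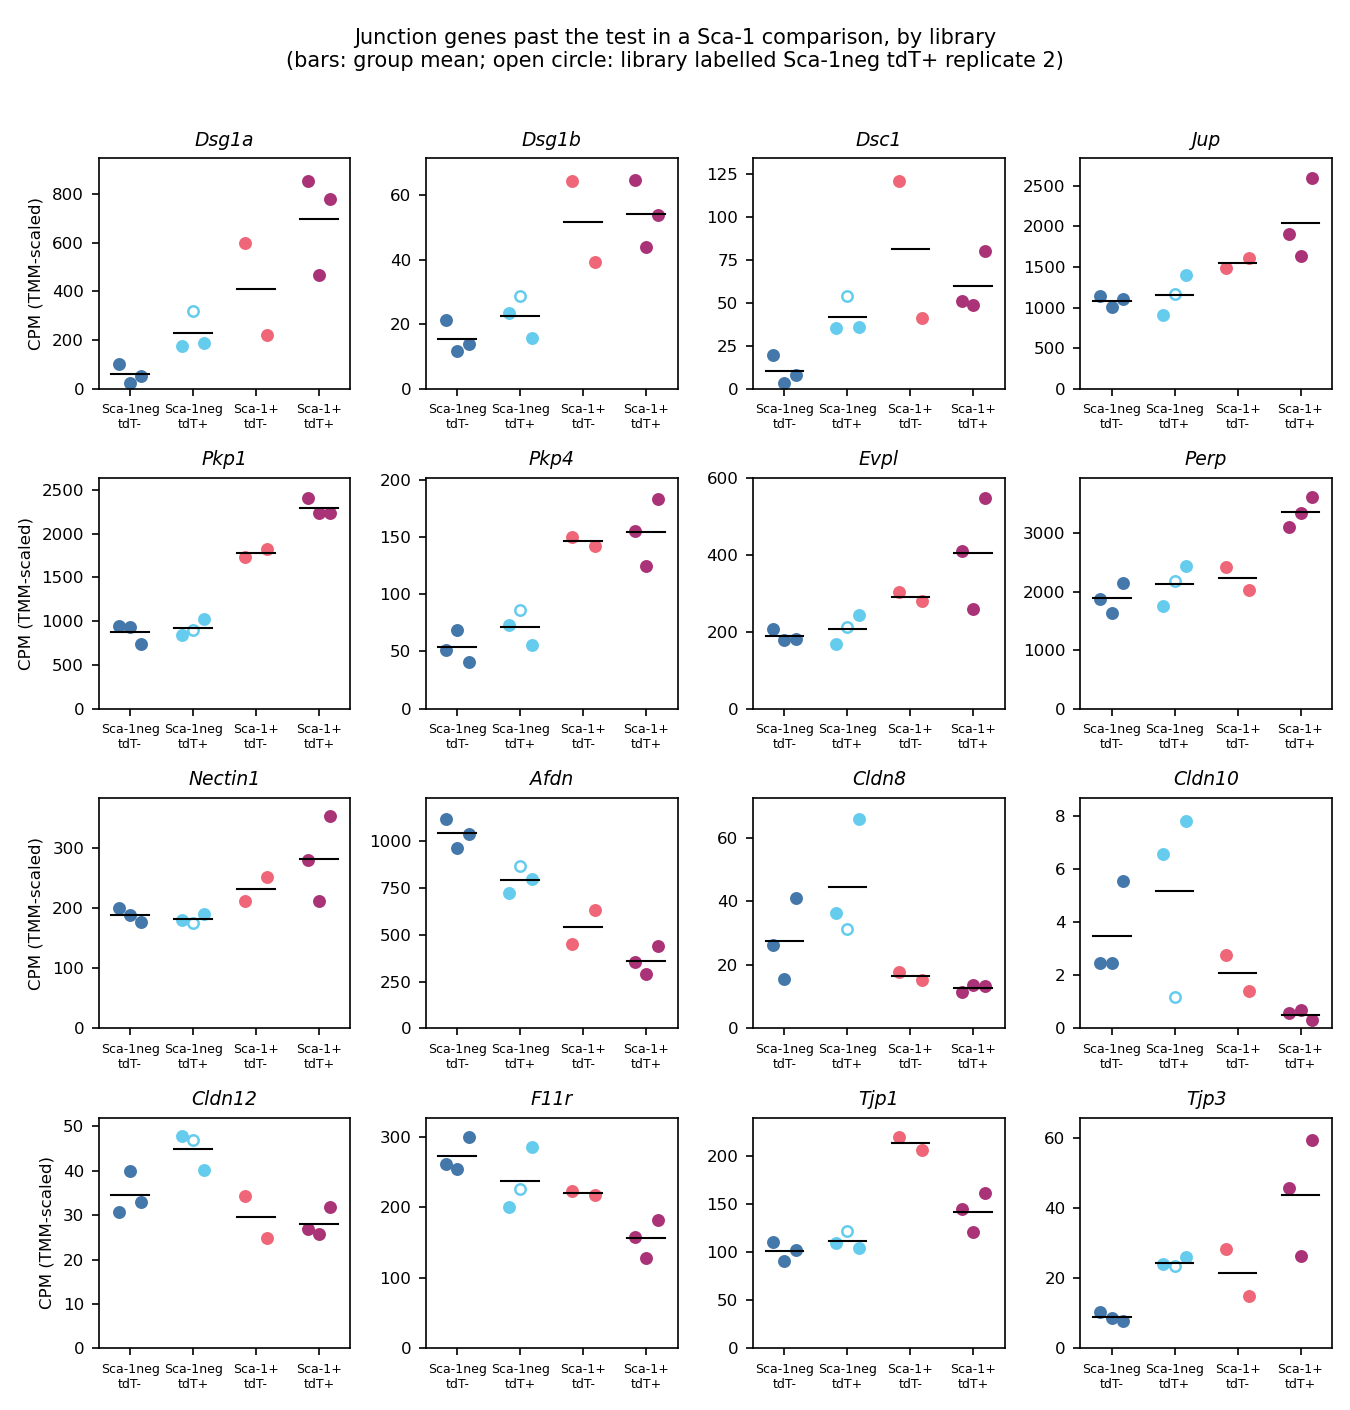
CPM in each library for the 16 junction genes that passed the test in a Sca-1 comparison, with bars at group means, each vertical axis starting at 0, and the library labelled replicate 2 of Sca-1neg tdT+ as an open circle. Pkp1, Pkp4 and Dsg1b separate all Sca-1+ from all Sca-1neg libraries, with Afdn separated in the opposite direction.

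Among the 8 adherens junction genes, Afdn (afadin) was lower in Sca-1+ libraries of both tdT states, Nectin1 was higher in Sca-1+ tdT+ cells, and the other 6 passed in neither Sca-1 comparison. Afdn (chr17:13760539-13906150, plus strand), which encodes the actin-binding partner of nectins, stood at 1120, 966 and 1038 CPM in Sca-1neg tdT-, 722, 868 and 796 in Sca-1neg tdT+, 449 and 634 in Sca-1+ tdT-, with 355, 289 and 440 in Sca-1+ tdT+. All 5 Sca-1+ libraries were below all 6 Sca-1neg libraries. The log2 fold change was -0.94 ± 0.22 (adjusted p = 0.0317, edgeR) in tdT- cells and -1.14 ± 0.19 (adjusted p = 0.0037) in tdT+ cells. In tdT- cells the call of Afdn was lost in 9 of 21 alternatives, with adjusted p up to 0.771 in edgeR. Among these were library size alone, the replicate block and leaving out either Sca-1+ tdT- library. An exon of Tcte2 overlaps Afdn on the opposite strand, and whether counting used the strand is not given in the sources used here.

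Bulge markers moved in the same direction as Afdn and as Cldn8, Cldn10, Cldn12 and F11r. The 10 bulge markers summed to 11820 to 22710 CPM in the Sca-1neg libraries and to 4422 to 7504 CPM in the Sca-1+ libraries. Of the 10, 5 were lower in Sca-1+ tdT- cells and all 10 in Sca-1+ tdT+ cells. Their part in these results was not tested.

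Nectin1, which encodes an adhesion molecule that binds afadin, ran from 176 to 201 CPM in the Sca-1neg and 212 to 353 CPM in the Sca-1+ libraries. Its log2 fold change was 0.63 ± 0.18 (adjusted p = 0.0419, edgeR) in tdT+ cells, and -0.15 when scaled to the basal keratinocyte markers. Nectin1 was therefore higher while Afdn was lower in the same tdT+ comparison under the usual scaling.

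Cdh1, which encodes E-cadherin, the classical cadherin of all epidermal layers, stood at 656, 502 and 683 CPM in Sca-1neg tdT-, 565, 706 and 996 in Sca-1neg tdT+, 892 and 858 in Sca-1+ tdT-, with 1008, 810 and 1733 in Sca-1+ tdT+. Its Sca-1 fold changes did not pass (0.51 ± 0.32 and 0.65 ± 0.29 on the log2 scale). Ctnnb1, which encodes beta-catenin, stood at 984, 1110 and 1086 CPM in Sca-1neg tdT-, 743, 705 and 896 in Sca-1neg tdT+, 802 and 943 in Sca-1+ tdT-, with 630.9, 722 and 629 in Sca-1+ tdT+. Every Sca-1neg tdT- value was above the other 8, although no comparison of Ctnnb1 passed. Cdh3 (P-cadherin, of the basal layer and hair follicle), Ctnna1 (alpha-catenin), Ctnnd1 (p120-catenin) and Nectin4 did not pass either, at 116 to 221, 426 to 598, 47.8 to 105 and 28.6 to 97.9 CPM over the 11 libraries.

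Among the claudins, the low-level Cldn8, Cldn10 and Cldn12 were lower in Sca-1+ tdT+ cells, and the abundant Cldn1 did not pass. None of the 8 claudins passed in tdT- cells, where 1 had an unadjusted p under 0.05 in edgeR, as had 4173 of all 20307 genes. Cldn8 (chr16:88560828-88563183, minus strand), a barrier-forming claudin, stood at 26.2, 15.5 and 40.9 CPM in Sca-1neg tdT-, 36.4, 31.3 and 65.7 in Sca-1neg tdT+, 17.8 and 15.3 in Sca-1+ tdT-, with 11.6, 13.6 and 13.4 in Sca-1+ tdT+. In tdT+ cells the fractions were far apart (-1.79 ± 0.36 on the log2 scale, adjusted p = 0.00876, edgeR), and in tdT- cells they overlapped (-0.73 ± 0.40, adjusted p = 0.332).

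Cldn10 (chr14:118787908-118875489, plus strand), a claudin that forms ion pores, stood at 2.48, 2.46 and 5.56 CPM in Sca-1neg tdT-, 6.57, 1.178 and 7.83 in Sca-1neg tdT+, 2.75 and 1.42 in Sca-1+ tdT-, with 0.586, 0.681 and 0.310 in Sca-1+ tdT+. The 3 Sca-1+ tdT+ libraries were the lowest of the 11. The log2 fold change in tdT+ cells was -3.29 ± 0.76 (adjusted p = 0.0171, edgeR).

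Cldn12 (chr5:5489537-5514958, minus strand) stood at 30.7, 39.9 and 33.0 CPM in Sca-1neg tdT-, 47.9, 47.0 and 40.1 in Sca-1neg tdT+, 34.3 and 24.8 in Sca-1+ tdT-, with 26.8, 25.7 and 31.9 in Sca-1+ tdT+. In tdT+ cells every Sca-1+ value was below every Sca-1neg value (-0.68 ± 0.18 on the log2 scale, adjusted p = 0.0315, edgeR). The call was lost in 7 of 21 alternatives.

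Cldn1, the main claudin of the epidermal barrier, stood at 322, 237 and 330 CPM in Sca-1neg tdT-, 382, 472 and 599 in Sca-1neg tdT+, 517 and 423 in Sca-1+ tdT-, with 528, 482 and 1011 in Sca-1+ tdT+. The 3 Sca-1neg tdT- libraries were the lowest, and no comparison of Cldn1 passed. Cldn4, a claudin of the granular layer, stood at 26.2, 13.2 and 15.7 CPM in Sca-1neg tdT-, 32.6, 78.2 and 87.3 in Sca-1neg tdT+, 111 and 74.9 in Sca-1+ tdT-, with 46.8, 39.1 and 188 in Sca-1+ tdT+. It had the same lowest group, and its log2 fold change between Sca-1 fractions in tdT- cells was 2.34 ± 0.72 (adjusted p = 0.104, edgeR). Cldn23 did not exceed 4.94 CPM in any library.

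Cldn3, a claudin of simple epithelia including liver, was at 16, 8.68 and 12.8 CPM in the 3 libraries with liver transcripts and at 0.949 CPM or less in the other 8. Cldn3 had no count in Sca-1neg tdT+ replicate 3 and Sca-1+ tdT+ replicate 2, which allows up to 0.165 and 0.170 CPM. Cldn3, Pkp2 and Dsg1c, 3 of the 40, were higher in each of these 3 libraries than in each of the other 8, as were 6.72% of all genes tested. The part of liver RNA in these levels was not tested.

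Among the other tight junction genes, the scaffold genes Tjp1 and Tjp3 were higher in Sca-1+ tdT- cells, and the adhesion molecule gene F11r was lower in Sca-1+ tdT+ cells. No other of the 6 passed in a Sca-1 comparison. Tjp1 (chr7:65296165-65527781, minus strand), which encodes ZO-1, stood at 110, 90.8 and 102 CPM in Sca-1neg tdT-, 109, 122 and 104 in Sca-1neg tdT+, 220 and 206 in Sca-1+ tdT-, with 144, 121 and 161 in Sca-1+ tdT+. Both Sca-1+ tdT- libraries were above the other 9 (log2 fold change in tdT- cells 1.07 ± 0.16, adjusted p = 0.0053, edgeR). In tdT+ cells the fractions overlapped, at 0.34 ± 0.14 (adjusted p = 0.137).

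Those 2 libraries also had the highest endothelial marker sums (4460 and 4793 CPM). The next were 1014 CPM, in the library labelled replicate 2 of Sca-1neg tdT+, and 165 CPM, in Sca-1neg tdT- replicate 2, where Tjp1 stood at 122 and 90.8 CPM. All 10 endothelial markers had a positive log2 fold change in that comparison. Other lists were high in these 2 libraries too. Langerhans cell markers summed to 899 and 1050 CPM there and to 462 to 735 CPM elsewhere. Hair matrix and inner root sheath markers summed to 961 and 815 CPM there and to 157 to 844.5 CPM elsewhere. The part of any of these cells in the Tjp1 value was not tested. The endothelial junction genes, which are not members of the set, stood apart in the same libraries: Cdh5 (VE-cadherin) was at 364 and 421 CPM there and at 0.386 to 87.4 CPM elsewhere. Esam was at 175 and 195 CPM there and at 0.110 to 44.4 CPM elsewhere. Cldn5, the claudin of endothelium, was at 7.94 and 8.59 CPM there and at 0.0551 to 10.8 CPM elsewhere, so its values overlapped.

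Tjp3, which encodes ZO-3, ran from 7.66 to 10.4 CPM in Sca-1neg tdT-, 23.5 to 26.01 in Sca-1neg tdT+, 14.9 to 28.2 in Sca-1+ tdT- and 26.5 to 59.5 in Sca-1+ tdT+. Sca-1neg tdT- was the lowest group without overlap. The Sca-1 difference in tdT- cells just passed, at a log2 fold change of 1.28 ± 0.34 (adjusted p = 0.0499, edgeR). An exon of Apba3 overlaps Tjp3 on the opposite strand.

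F11r (chr1:171437535-171464603, plus strand), which encodes the junctional adhesion molecule JAM-A, stood at 262, 255 and 300 CPM in Sca-1neg tdT-, 200, 226 and 286 in Sca-1neg tdT+, 223 and 218 in Sca-1+ tdT-, with 158, 128 and 183 in Sca-1+ tdT+. The 3 Sca-1+ tdT+ libraries were the lowest of the 11, and the difference in tdT+ cells was -0.60 ± 0.17 on the log2 scale (adjusted p = 0.0445, edgeR). Ocln (occludin), Marveld2 (tricellulin) and Cgn (cingulin) did not pass, at 25.7 to 82.9, 9.77 to 22.2 and 6.19 to 39.4 CPM over the 11 libraries.

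Of the 16 genes that passed a Sca-1 comparison, promoter sequence is shown for 4, chosen to hold genes that were higher and genes that were lower. RefSeq windows (GRCm38.p6) were used for 19 of the 40 genes, and only the 250 bases before the annotated start were searched, on both strands. Capitals mark an E-box CACCTG, on either strand, or an AP-1 motif TGANTCA. The windows are F11r at chr1:171437311-171437560 (plus strand, lower in Sca-1+ tdT+), Tjp3 at chr10:81291582-81291831 (minus strand, higher in Sca-1+ tdT-), Pkp4 at chr2:59160600-59160849 (plus strand, higher in both) and Afdn at chr17:13760291-13760540 (plus strand, lower in both).
F11r: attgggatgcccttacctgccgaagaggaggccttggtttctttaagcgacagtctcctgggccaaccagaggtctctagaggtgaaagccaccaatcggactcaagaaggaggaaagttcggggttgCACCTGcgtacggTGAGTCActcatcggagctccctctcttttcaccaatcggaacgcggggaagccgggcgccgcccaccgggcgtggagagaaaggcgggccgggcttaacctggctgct
Tjp3: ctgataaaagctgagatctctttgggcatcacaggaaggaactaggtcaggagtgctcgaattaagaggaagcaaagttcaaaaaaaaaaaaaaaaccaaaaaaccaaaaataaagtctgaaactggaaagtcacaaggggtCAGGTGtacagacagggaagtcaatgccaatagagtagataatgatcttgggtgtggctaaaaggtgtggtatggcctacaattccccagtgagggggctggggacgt
Pkp4: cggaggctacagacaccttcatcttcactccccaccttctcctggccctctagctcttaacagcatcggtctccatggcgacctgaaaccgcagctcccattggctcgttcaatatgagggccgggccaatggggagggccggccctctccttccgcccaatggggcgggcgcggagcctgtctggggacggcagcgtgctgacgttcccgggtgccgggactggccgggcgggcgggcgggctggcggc
Afdn: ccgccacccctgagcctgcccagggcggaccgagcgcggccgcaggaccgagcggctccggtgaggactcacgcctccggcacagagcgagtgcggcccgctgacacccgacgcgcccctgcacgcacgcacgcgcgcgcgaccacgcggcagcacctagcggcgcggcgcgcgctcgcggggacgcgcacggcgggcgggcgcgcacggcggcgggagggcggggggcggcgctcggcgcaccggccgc
F11r holds an E-box 122 bases and an AP-1 motif 109 bases before its start, and this Tjp3 window holds an E-box 108 bases before the start. The Pkp4 and Afdn windows shown hold none of the motifs searched. A second annotated window of Pkp4 and one of Tjp3 each hold an E-box, 47 and 17 bases before their starts. The bases that follow this Pkp4 window were not found near the start of a transcript of the gene.

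Over the 19 genes, the E-box was found in 6 (Cldn4, Cldn7, F11r, Ocln, Pkp4 and Tjp3), beside 19.43% of 27025 genes with a window of this length. The 19 hold no desmosomal cadherin and not Pkp1. They had 29 windows, and the 27025 genes had 32851, so a gene of the set had on average more sequence to match in. The AP-1 motif was found in 2 (Cldn4 and F11r), beside 7.82%, and TATAAA in 3 (Ctnnb1, Ctnnd1 and Marveld2), beside 14.33%. AACCGGTT, a motif of the grainyhead-like factors, was in none, beside 0.14%. These matches describe letters in a window and are not binding sites.

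Ratios of related genes within a library, which do not depend on scaling between libraries, were compared for 6 pairs. Over both tdT states, 3 of the 6 differed between the 5 Sca-1+ and the 6 Sca-1neg libraries in a two-sided exact permutation test, adjusted over the 6 ratios. The smallest p these groups allow is 0.00433, and 0.1 within a tdT state. Labels were permuted over all 11 libraries without holding the tdT state fixed. The log2 ratio of the summed Dsg1 genes to Dsg3, which does not depend on the split among the copies, was -2.50, -3.78 and -3.47 in Sca-1neg tdT-, -1.14, -0.643 and -1.80 in Sca-1neg tdT+, 0.350 and -1.10 in Sca-1+ tdT-, with 0.683, 0.072 and 0.634 in Sca-1+ tdT+. Sca-1neg tdT- was lowest and Sca-1+ tdT+ highest, with 1 Sca-1+ tdT- library among the Sca-1neg tdT+ values. Sca-1+ exceeded Sca-1neg by 2.35 (5.09-fold, exact permutation p = 0.0108, adjusted p = 0.0216).

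Cdh3 to Cdh1, P-cadherin to E-cadherin, had log2 ratios of -1.57, -1.37 and -1.85 in Sca-1neg tdT-, -1.99, -2.61 and -2.33 in Sca-1neg tdT+, -2.84 and -2.52 in Sca-1+ tdT-, with -2.64, -2.66 and -3.08 in Sca-1+ tdT+. Sca-1neg tdT- was again apart from all other libraries, at the high end. The difference between Sca-1 fractions was -0.80 on the log2 scale (exact permutation p = 0.0108, adjusted p = 0.0216). Cdh3 and Cdh1 were each tested within a tdT state, where neither passed. Within each tdT state their ratio did not pass either (exact permutation p = 0.1, the smallest possible, adjusted p = 0.15). The pooled test did not hold the tdT state fixed. In it, the library labelled replicate 2 of Sca-1neg tdT+ (-2.61) lay among the Sca-1+ values.

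Pkp2 to Pkp1 had log2 ratios of -9.35, -7.15 and -8.81 in Sca-1neg tdT-, -6.63, -6.20 and -8.12 in Sca-1neg tdT+, -9.57 and -10.50 in Sca-1+ tdT-, with -11.60, -10.02 and -10.40 in Sca-1+ tdT+. The fractions did not overlap (-2.71 on the log2 scale, exact permutation p = 0.00433, the smallest possible; adjusted p = 0.0216). The 3 highest values were the 3 libraries with liver transcripts, and without them the difference was -1.66 (exact permutation p = 0.0357).

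The other ratios did not pass. Differences between Sca-1 fractions on the log2 scale were 1.46 for Dsc1 to Dsc3 (exact permutation p = 0.0801, adjusted p = 0.12), -1.01 for Dsc2 to Dsc3 (exact permutation p = 0.13, adjusted p = 0.143) and 0.67 for Cldn4 to Cldn1 (exact permutation p = 0.143, adjusted p = 0.143). Within Sca-1neg cells, tdT+ and tdT- libraries did not overlap for Dsc1 to Dsc3 or for the Dsg1 genes to Dsg3. Those differences were 2.36 and 2.05 on the log2 scale, each at the exact permutation p of 0.1 that is the smallest for 3 against 3.

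**Figure D4:**
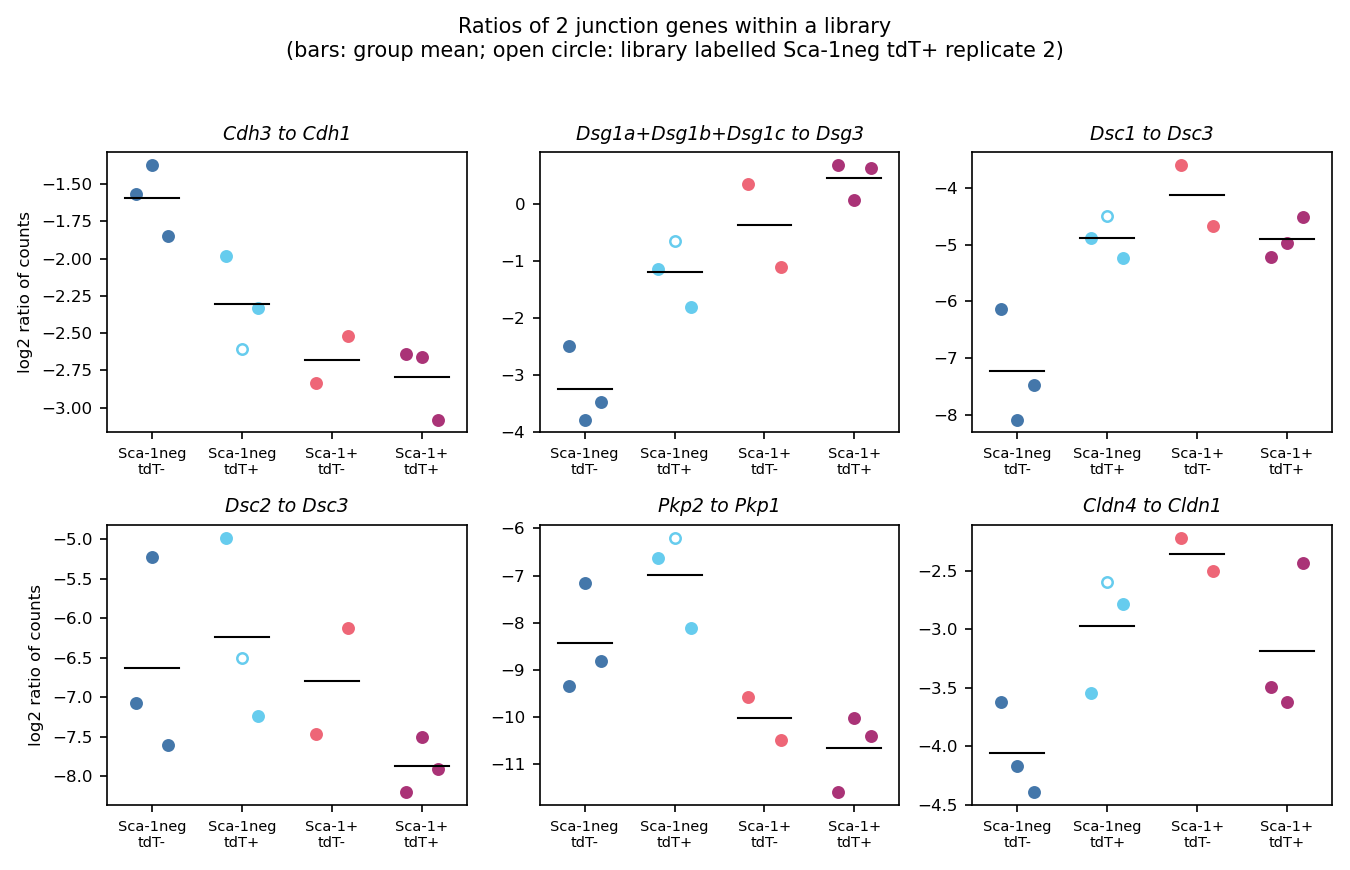
Log2 ratio of counts of related junction genes in each library, for 6 ratios, with bars at group means and the library labelled replicate 2 of Sca-1neg tdT+ as an open circle. Sca-1neg tdT- libraries lie lowest for the Dsg1 genes to Dsg3 and highest for Cdh3 to Cdh1, and Pkp2 to Pkp1 is lower in every Sca-1+ library.

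No junction gene passed between tdT+ and tdT- cells of the same Sca-1 fraction in edgeR. In Sca-1neg cells, 0 of 40 passed, where 0.064% of all genes did (0.0542% higher and 0.00985% lower). Of the 40, 8 had an unadjusted p under 0.05 in edgeR, as had 1691 of all 20307 genes. DESeq2 called 5 (Dsg1a, Dsc1, Cldn4, Marveld2 and Tjp3, all higher in tdT+), where it called 2.3% of all genes it tested, 2.01% of them higher. With voom 1 was called (Pkp2, higher), beside 1.23% of all genes. The median log2 fold change of the 40 was 0.40, beside -0.03 over all genes. All 8 claudins and 5 of the 6 other tight junction genes had a positive difference, with medians of 0.70 and 0.71. Of all 20307 genes, 9609 had a positive difference. Among these tight junction genes, Cldn3, Cldn7, Cldn23 and Tjp1 had opposite signs at 29 and at 32 weeks. The others with a positive difference were positive at both ages. Several marker lists were mostly positive too. Of differentiating epidermis 10 of the 12 were (median 1.203, none called), and of the upper follicle 7 of the 8 (0.46, none called). All 10 of liver (1.19) and all 10 of endothelium (1.57) were positive, with none called. Of Langerhans cells 5 of the 6 were positive (1.65, none called), and of T cells all 8 (3.27, 1 called). Mostly negative were the basal keratinocyte (1 of 8 positive, median -0.34), bulge (3 of 10, -0.31), melanocyte (0 of 6, -0.635), fibroblast (2 of 6, -0.21) and sebaceous lists (2 of 6, -0.16). Hair matrix and inner root sheath markers were split, 4 and 4. The part of these cells in the tight junction values was not tested. Tjp3 had the lowest adjusted p of the set, with a log2 fold change of 1.46 ± 0.31 (adjusted p = 0.155, edgeR), followed by Marveld2 at 0.78 ± 0.22 (adjusted p = 0.316) and Dsg1a at 1.93 ± 0.56 (adjusted p = 0.372). Without overlap between libraries, 8 of the 40 were higher in tdT+ (5.07% of all genes) and 3 lower (10.9%). Tjp3, Marveld2, Dsg1a, Dsc1 and Cldn4 were among the 8. This group includes the library labelled replicate 2 of Sca-1neg tdT+, whose reporter level was that of tdT- cells. Without that library the edgeR count was also 0.

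In Sca-1+ cells, 0 of 40 passed between tdT+ and tdT-, where 2.74% of all genes did (0.394% higher and 2.34% lower). Of the 40, 7 had an unadjusted p under 0.05 in edgeR, as had 2935 of all 20307 genes. DESeq2 called 1 (Tjp1, lower in tdT+), beside 7.99% of all genes it tested, and voom called 2 (Perp higher and Tjp1 lower), beside 5.61%. Tjp1 had a log2 fold change of -0.58 ± 0.16 (adjusted p = 0.09, edgeR) and Perp one of 0.59 ± 0.20 (adjusted p = 0.188). Differences were positive for 20 genes and negative for 20, with a median of 0.02, beside 0.04 over all genes. Without overlap between libraries, 5 were higher in tdT+ (15.8% of all genes) and 6 lower (17.2%).

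The tdT difference itself was compared between the fractions, which is also the comparison of the Sca-1 difference between tdT states. None of the 40 passed in edgeR, where 0.483% of all genes did (0.0148% higher and 0.468% lower). Of the 40, 4 had an unadjusted p under 0.05 in edgeR, as had 2476 of all 20307 genes. DESeq2 called 2 (Dsc1 and Tjp1, both with the lower tdT difference in Sca-1+ cells), beside 4.53% of all genes it tested, and voom called 0, beside 3.31%. For Tjp1 the difference was -0.73 ± 0.21 on the log2 scale (adjusted p = 0.188, edgeR), for Dsc1 -2.46 ± 0.93 (adjusted p = 0.339), for Cldn8 -1.06 ± 0.52 (adjusted p = 0.446) and for Cldn10 -2.55 ± 1.04 (adjusted p = 0.354). Genes that passed in only 1 of the Sca-1 comparisons were therefore not shown to differ between tdT states.

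Of a wider list of 46 other junction genes, 41 were tested. In tdT- cells 1 was lower in Sca-1+ libraries and 0 higher, where 2.06% and 3.68% of all genes passed. This was Patj, which encodes a polarity scaffold of tight junctions, at 87.9 to 98.3 CPM in Sca-1neg and 47.2 and 60.6 in Sca-1+ libraries (log2 fold change -0.78 ± 0.20, adjusted p = 0.0423, edgeR). In tdT+ cells 2 were higher and 4 lower, where 5.94% and 6.73% of all genes passed. Lower were Ildr1, a component of tricellular junctions, at 14.2 to 20.9 against 3.77 to 5.68 CPM (-1.81 ± 0.27, adjusted p = 0.00204), and Cgnl1, which encodes paracingulin, at 102 to 271 against 14.6 to 33.7 CPM (-2.80 ± 0.42, adjusted p = 0.00291). Magi3, a scaffold protein gene, was lower too, at 12.9 to 25.8 against 2.08 to 6.14 CPM (-2.16 ± 0.44, adjusted p = 0.00951), as was Patj (-0.68 ± 0.17, adjusted p = 0.0257). Higher were the polarity genes Crb3, at 16.4 to 25.6 against 30.5 to 47.0 CPM (0.87 ± 0.21, adjusted p = 0.022), and Pard6b (1.16 ± 0.34, adjusted p = 0.0483, named after its value was seen). Between tdT+ and tdT- cells none of the 41 passed in edgeR, with 4 at an unadjusted p under 0.05 in Sca-1neg and 13 in Sca-1+ cells. Of all 20307 genes tested, 1691 and 2935 were under it.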

How the data were processed

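Each library's file, as the authors deposited it, holds raw counts of 55536 genes under Ensembl identifiers. Per the submitters' processing notes they used bcl2fastq 2.20.0.422, FastQC, STAR, featureCounts, DESeq2 1.18.1 and the build mm10. Per the labels' protocols, cells were released with thermolysin, RNA was taken with Trizol and the kit was TruSeq RNA v2. Annotation release, strandedness of counting and handling of multiply mapped reads: not given in the sources used here. One entry that names no gene, read as the reporter, held 0.000205% to 0.0307% of the counts of a library and was kept out of library sizes and tests.

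Symbols and exon lengths came from GENCODE M21, with a symbol for 55450 genes. Library totals ran from 17409131 to 46542177 counts. No library was a copy of another, with a smallest chi-square per degree of freedom of 45.5 between 2 libraries. Counts were filtered (filterByExpr by group), scaled by TMM and tested with the quasi-likelihood test of edgeR 4.0.16 in R 4.3.3. All 11 libraries entered 1 fit with 4 group means (7 residual degrees of freedom), with Benjamini-Hochberg adjustment over 20307 genes and a threshold of 0.05. The SE was derived from the F statistic, as the size of the log2 fold change over its square root. Ratios were tested with two-sided exact permutation tests, adjusted over 6 ratios. On simulated counts for Sca-1+ against Sca-1neg in tdT+ cells (19162 genes tested), 67 of 100 genes changed 4-fold and 9 of 100 changed 2-fold were recovered, and 5 unchanged genes were called.

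Values in every library are given for up to 5 higher and 5 lower members per comparison by lowest p, and for the 2 most abundant members of each role per length. Up to 4 other junction genes per comparison were named by lowest p, with Cldn5, Cdh5 and Esam. The members and all lists were chosen with earlier results of these data known. Alternatives were DESeq2 1.42.0, voom of limma 3.58.1 with quality weights, other scalings, no filter, replicate number as a block, 32-week libraries alone, only the groups compared, no libraries with liver transcripts, and leaving out each library.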

Additional observations from a re-analysis of the deposited data

How the results depend on the processing

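Counts of the 40 genes called were recomputed under each alternative, with the share of all genes called under the same setting in parentheses. For tdT in Sca-1neg cells, 0 became 5 with DESeq2 (2.3%), 1 without the filter on low counts (Tjp3; 0.196%) and 1 with voom (1.23%). For tdT in Sca-1+ cells, 0 became 1 with DESeq2 (7.99%), 2 with voom (5.61%) and 5 with scaling to the basal keratinocyte markers, all 5 lower (9.66% lower). For Sca-1 in tdT- cells, 8 became 5 with library size alone (4.8%), 5 with the marker scaling (4.71%), 14 with voom (20.5%) and 0 in the 32-week libraries alone (0.0411%), and ran from 0 to 8 when 1 library was left out. For Sca-1 in tdT+ cells, 12 became 0 in the 32-week libraries alone (1.58%), where fewer libraries were compared, and ran from 4 to 14 when 1 library was left out. There the marker scaling gave 1 higher (1.27%) and 14 lower (38.2%) in place of 7 and 5, and reversed Perp (-0.11) and Nectin1 (-0.15). For the difference between fractions, 0 became 2 with DESeq2 (4.53%) and 7 lower with the marker scaling (9.78% lower). That scaling used the summed counts of the 8 markers. It moved the median of all genes by 0.36, -0.52, 0.09, -0.80 and -0.90 in the 5 comparisons in this order. For Sca-1, fits with 1 library left out that kept replicates in each group called 1.5% to 8.18% of all genes in tdT- cells. In tdT+ cells such fits called 7.91% to 15.4% of all genes. The causes were not tested. With 1 library left out, the counts for the tdT comparisons and for the difference between fractions stayed at 0. Leaving out 1 library gave log2 ratio differences between Sca-1 fractions of 1.05 to 1.77 for Dsc1 to Dsc3 and -1.33 to -0.71 for Dsc2 to Dsc3, and Dsc1 to Dsc3 was 1.69 (exact permutation p = 0.0179) without the libraries with liver transcripts. The ranges for Dsg1 genes to Dsg3, Cdh3 to Cdh1 and Pkp2 to Pkp1 were 2.04 to 2.67, -0.93 to -0.68 and -3.04 to -2.41, and for Cldn4 to Cldn1 0.49 to 0.86. Replicate numbers were not treated as pairs, and whether same-numbered pools share mice is not known. Same-numbered libraries of different groups had correlations of their deviations from -0.415 to 0.589 (15 pairs, median 0.083). Those of other numbers ran from -0.602 to 0.513 (30 pairs, median -0.023). Of 11 libraries, 7 correlated best with their own number, and how often this would occur without shared mice was not computed. With the replicate block the counts were 0, 0, 6, 11 and 0, beside 0.0739%, 2.47%, 5.06%, 12.7% and 0.606% of all genes. Of the 6 and 11 in the Sca-1 comparisons, 6 and 10 were shared with the fit without the block. The calls of Pkp1 and Afdn in tdT+ cells were each kept in 20 of 21 alternatives, those of Perp in 8 and Nectin1 in 5, and in tdT- cells those of Pkp1, Pkp4 and Tjp1 in 19, Dsg1a in 14, Afdn in 12, Tjp3 in 8 and Dsc1 in 6. That of Dsg1b in tdT- cells was kept in 18. In tdT+ cells Cldn8 was kept in 20, Pkp4 in 19, Cldn10 in 16, Dsg1b in 15, Cldn12 in 14, Jup and Evpl in 13 each, and F11r in 9. Cldn3 and Cldn7 had no count in 2 libraries each, where levels up to 0.165 and 0.170 CPM were not detectable.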

Other observations

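Within the Sca-1neg fraction, the 3 libraries with liver transcripts were set beside the other 3, with no test, since these groups mix tdT states and were defined from the data. Of the 40 junction genes, 7 were higher in each of the 3 libraries than in each of the others: Dsg1c, Dsg2, Dsc2, Pkp2, Pkp4, Cldn3 and Cldn7. Over all genes tested, 14.7% were. Another 6 were lower in each: Dsg3, Dsc3, Dsp, Ctnna1, Ctnnd1 and F11r, beside 12.1% of all genes. Both counts of the set were near the shares of all genes, so they do not set the junction genes apart. Dsc2 ran from 13.5 to 33.1 CPM in these libraries and from 7.20 to 10.3 CPM in the 3 others, and Dsg2 from 83.3 to 117 and from 53.0 to 74.0 CPM.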
